A study of Mus musculus with 11 samples.

Results

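The genes described here encode the machinery of cell division. They were taken by gene symbol, with a name pattern covering A-, B- and E-type cyclins, Cdk1, replication licensing factors, E2F transcription factors, centromere and spindle proteins, mitotic kinases and kinesins, and the proliferation marker Mki67. The pattern found 37 of the 4474 genes listed in either of 2 deposited tables, with 26 in the brown adipose tissue (BAT) table, 18 in the liver table and 7 in both. It also took Ccnb1ip1, which resembles a cyclin in name only and acts in meiotic crossing over.

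The study asked how cutting neuropeptide signalling in the preBötzinger complex (preBötC), the brainstem site that generates the breathing rhythm, alters fear and metabolism. All mice were Adcyap1r1 flox/flox, so that the controls also carried the floxed alleles of the receptor for the neuropeptide PACAP. AAV-Cre, a viral vector for the recombinase that excises floxed DNA, or AAV-GFP was injected into the preBötC, and both groups went through the procedure the labels call SEFL. RNA sequencing of poly(A) RNA covered 2 control (1 and 2) and 3 Cre libraries (4, 5 and 6) of BAT and 3 control (7, 8 and 9) and 3 Cre libraries (10, 11 and 12) of liver. The labels name no strain, sex, age, promoter driving Cre or time after injection, and do not say whether each library came from a separate animal. P-values therefore measure the spread between libraries, which may be technical.

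Each table holds 2500 genes as row z-scores, that is, the distance of a library from the gene's mean in units of the gene's standard deviation over 6 libraries. Of the 6 libraries behind the BAT scaling, 5 are analysed here. A z-score cannot exceed 2.24 with 6 libraries and keeps no expression level, depth or fold change, so values compare libraries within a gene and tissue only. The deposited sheets are titled for genes lower in Cre in BAT and higher in Cre in liver, but the Cre mean was higher for 17.5% of the BAT genes and lower for 60.4% of the liver genes. No label says how the 2500 genes were chosen. If they were picked for differing between libraries or groups, counts of differing genes are not independent evidence. Adcyap1r1 is in neither table, and since the vectors were injected into the brainstem, BAT and liver libraries would not have checked its excision there. The BAT table holds 1 of 9 brown adipocyte markers (Dio2) while the liver one holds 5 of 13 hepatocyte markers. In a table of selected genes such absences do not test the tissue labels.

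A dividing cell copies its genome in S phase and parts the copies in mitosis. Cyclins switch on their kinases in turn, E2F factors drive the S-phase genes, and the DREAM and B-MYB complexes act through CHR elements on the mitotic genes, many of which also carry CCAAT boxes bound by NF-Y. Mature adipocytes and hepatocytes of resting adult tissue rarely divide, and transcripts of this kind in such tissue can come from any cycling cell in it, including immune, endothelial and progenitor cells.

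In BAT, nearly the whole set peaked in a single control library. Control 1 had the highest value of 25 of the 26 genes, at z-scores of 1.48 to 2.24, and lay above 2 for 22 of them. Over the whole table it was highest for 70.7% of genes and above 2 for 41.9%. The other control library did not share this position: the mean z-score over the 26 genes was 2.01 in control 1, -0.28 in control 2, -0.59 in Cre 4, -0.18 in Cre 5 and -0.66 in Cre 6. In bulk tissue, fewer dividing cells and less of these RNAs per cell cannot be told apart.

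The gap between control 1 and the highest other library had a median of 2.17 over the 26 genes and 1.35 over the whole table. This gap was negative for genes in which another library was higher. The remaining 4 libraries spanned a median of 0.7 for the division genes and 1.56 for all genes. Because a z-score is bounded, 1 extreme library presses the others together, and the narrow span among them does not show that they held equal amounts.

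**Figure D1:**
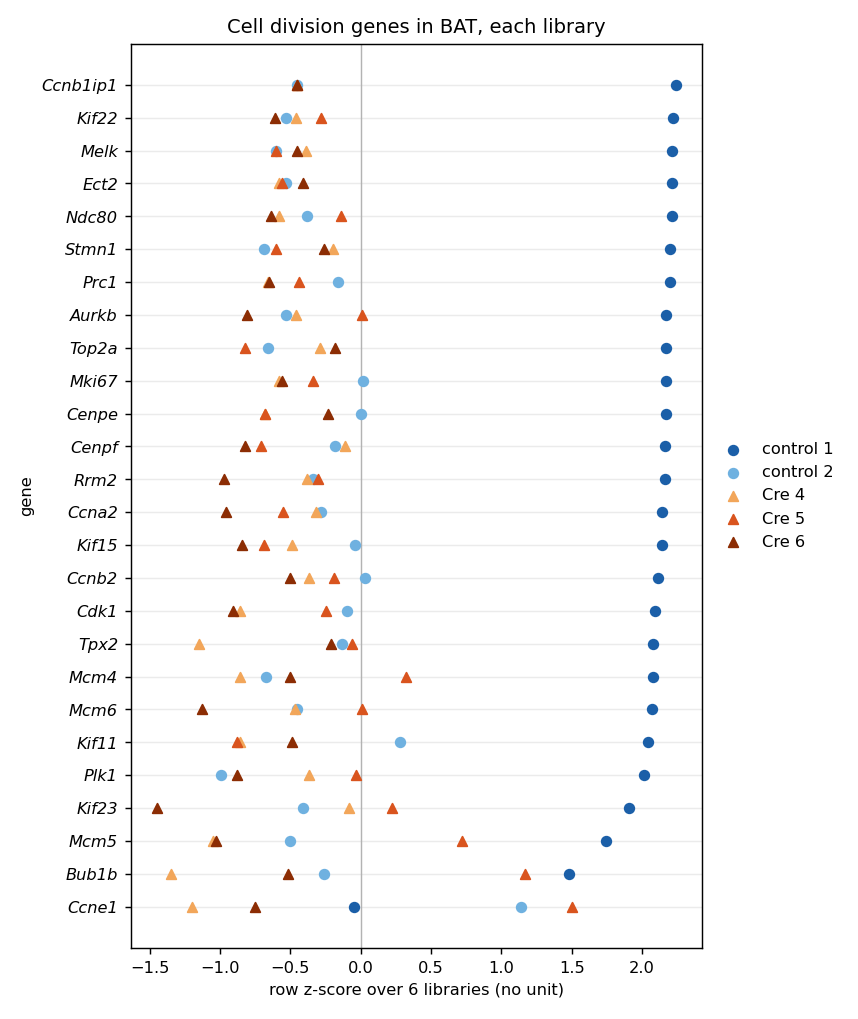
Row z-score (horizontal axis, in SD over 6 libraries) of each of the 26 cell division genes in the BAT table (vertical axis), with a circle for each control and a triangle for each Cre library. Control 1 stands apart at 1.48 to 2.24 for 25 genes, and Ccne1 is the exception.

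The promoters of 7 genes are shown because they carry the elements through which cell cycle genes are co-regulated, or belong to genes that departed from the shared library pattern. Cdk1 (chr10:69352863-69353162, minus strand), Top2a (chr11:99024140-99024439, minus strand), Mki67 (chr7:135716330-135716629, minus strand) and Mcm5 (chr8:75109259-75109558, plus strand) followed the pattern, while Ccne1 (chr7:38107441-38107740, minus strand) in BAT and Mcm10 (chr2:5012742-5013041, minus strand) and E2f8 (chr7:48881547-48881846, minus strand) in liver did not. The sequences are from RefSeq on GRCm38.p6, 5′ to 3′ on the gene's strand, from 250 bases before the annotated start to 50 bases from it on. Capitals mark the CHR element (TTTGAA), the CCAAT box and the E2F site (TTTCGCGC, TTTGGCGC, TTTCCCGC or TTTGCCGC), each on either strand.
Cdk1: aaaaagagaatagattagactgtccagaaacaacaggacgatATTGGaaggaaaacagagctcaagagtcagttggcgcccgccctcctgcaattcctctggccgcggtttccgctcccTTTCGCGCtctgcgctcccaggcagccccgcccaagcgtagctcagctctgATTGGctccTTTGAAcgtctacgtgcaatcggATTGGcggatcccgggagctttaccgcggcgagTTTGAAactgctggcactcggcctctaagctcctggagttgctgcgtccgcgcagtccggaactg
Top2a: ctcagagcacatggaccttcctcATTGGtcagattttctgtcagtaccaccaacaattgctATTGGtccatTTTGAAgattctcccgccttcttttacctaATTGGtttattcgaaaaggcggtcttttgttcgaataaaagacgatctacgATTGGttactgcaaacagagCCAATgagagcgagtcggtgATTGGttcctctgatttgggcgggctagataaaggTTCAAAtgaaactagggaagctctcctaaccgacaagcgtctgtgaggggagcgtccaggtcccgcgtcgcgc
Mki67: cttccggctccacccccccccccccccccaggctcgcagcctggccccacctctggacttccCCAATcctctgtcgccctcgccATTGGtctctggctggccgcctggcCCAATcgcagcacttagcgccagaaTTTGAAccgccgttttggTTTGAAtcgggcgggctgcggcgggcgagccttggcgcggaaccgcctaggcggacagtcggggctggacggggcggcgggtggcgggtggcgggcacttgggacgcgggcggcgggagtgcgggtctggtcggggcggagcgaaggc
Mcm5: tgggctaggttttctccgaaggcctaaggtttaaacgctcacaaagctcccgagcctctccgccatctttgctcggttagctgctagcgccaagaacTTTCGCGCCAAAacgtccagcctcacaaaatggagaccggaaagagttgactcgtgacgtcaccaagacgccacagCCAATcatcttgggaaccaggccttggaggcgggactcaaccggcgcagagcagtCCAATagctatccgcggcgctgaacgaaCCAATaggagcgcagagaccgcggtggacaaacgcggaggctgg
Ccne1: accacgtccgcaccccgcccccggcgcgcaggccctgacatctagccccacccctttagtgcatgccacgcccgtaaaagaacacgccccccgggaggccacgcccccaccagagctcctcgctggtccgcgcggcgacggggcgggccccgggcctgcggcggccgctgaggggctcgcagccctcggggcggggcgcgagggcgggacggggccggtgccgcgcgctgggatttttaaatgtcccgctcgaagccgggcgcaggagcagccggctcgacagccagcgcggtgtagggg
Mcm10: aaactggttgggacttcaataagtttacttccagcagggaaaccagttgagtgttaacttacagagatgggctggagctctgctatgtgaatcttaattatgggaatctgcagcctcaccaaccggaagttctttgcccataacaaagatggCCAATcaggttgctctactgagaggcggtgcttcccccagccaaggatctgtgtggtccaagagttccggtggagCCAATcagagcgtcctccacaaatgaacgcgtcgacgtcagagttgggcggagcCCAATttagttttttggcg
E2f8: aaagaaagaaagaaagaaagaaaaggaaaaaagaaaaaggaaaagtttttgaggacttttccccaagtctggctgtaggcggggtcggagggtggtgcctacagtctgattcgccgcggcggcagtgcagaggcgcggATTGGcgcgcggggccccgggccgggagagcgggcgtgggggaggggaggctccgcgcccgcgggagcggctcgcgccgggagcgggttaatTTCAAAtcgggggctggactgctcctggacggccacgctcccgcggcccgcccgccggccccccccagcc

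Promoters were found for 32 of the 37 genes, the others being Aurkb, Ccna2, Mcm4, Stmn1 and Tpx2. TTTGAA was in 18 of the 32 promoters (56.2%), against 18.1% of all 27025 promoters and 14.8% and 13.8% of those of genes in the BAT and liver tables. CCAAT was in 23 (71.9%), against 37.9% of all promoters, and the E2F letters were in 6 (18.8%), against 2.32%. Cdk1 alone held all 3 elements, with TTTGAA starting at -71 and -15 from the annotated start. Top2a held 2 TTTGAA and 6 CCAAT matches and Mki67 held 2 and 3. The S-phase gene Mcm5 had no TTTGAA but 3 CCAAT matches and 2 E2F matches that overlap each other. Mcm6 had 3 E2F matches, of which those starting at -110 and -106 also overlap. No match of 1 element overlapped a match of another.

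Of the 4 genes that departed from the shared pattern, Ccne1 had no exact match to the 3 elements in this window. Mcm10 had 3 CCAAT matches only, E2f8 had 1 TTTGAA and 1 CCAAT match, and Cdc20, of liver, had 1 and 2. Birc5, Ccnb1ip1, Melk, Ncapd3 and Tk1 also had no match but followed the shared pattern. Melk and Ccnb1ip1 peaked in BAT control 1, and Birc5, Ncapd3 and Tk1 in liver control 8. Only the exact letters given were searched. The CHR variant TTTAAA, which the Ccne1 window holds, was not counted, so having no match does not show that an element is absent. A match describes letters in the window and is not evidence of binding.

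**Figure D2:**
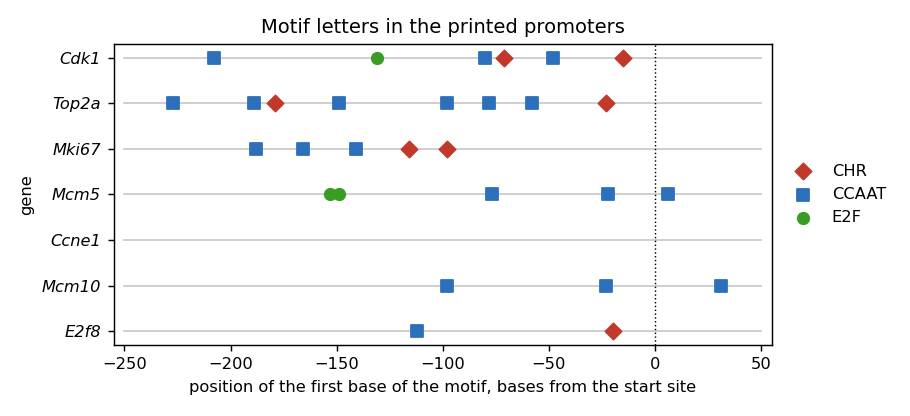
Position of each motif match in the 7 printed promoters, with the first base of the match in bases from the annotated start (horizontal axis, dotted line at the start) for each gene (vertical axis) and a symbol for each of CHR, CCAAT and E2F. Cdk1 carries all 3 kinds, Top2a has 6 CCAAT matches, and Ccne1 has no match.

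Among the BAT cyclins and their kinases, Cdk1, the kinase that drives entry into mitosis, had z-scores of 2.09 and -0.10 in the controls and -0.86, -0.25 and -0.91 in Cre 4, 5 and 6. Its partner cyclin A2 gene, Ccna2, had 2.14 and -0.28 in the controls and -0.32, -0.55 and -0.96 in the Cre libraries. Ccnb2, a B-type cyclin of mitosis, had 2.11 and 0.03 against -0.37, -0.19 and -0.50. In these 3 genes both controls lay above the Cre libraries, but control 2 was closer to the Cre libraries than to control 1. Plk1, the kinase of mitotic entry and spindle assembly, had 2.01 and -0.99 in the controls and -0.37, -0.03 and -0.88 in the Cre libraries, so that control 2 was its lowest library.

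Ccne1, the E-type cyclin that promotes entry into S phase, was the exception. Its z-scores were -0.05 and 1.14 in the controls against -1.20, 1.5 and -0.75 in Cre 4, 5 and 6. The highest value was thus in a Cre library, control 1 lay in the middle, and the groups overlapped, with a Cre minus control difference of -0.70 (SE 1.17).

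The genes of DNA replication were high in control 1 and ranked Cre 5 second. Mcm5, a subunit of the replicative helicase, had 1.74 and -0.50 in the controls and -1.05, 0.72 and -1.03 in the Cre libraries. Rrm2, a subunit of the reductase that makes deoxynucleotides, had 2.16 and -0.34 in the controls and -0.38, -0.30 and -0.97 in the Cre libraries. For Mcm4 and Mcm6, other helicase subunits, Cre 5 was second at 0.32 and 0.01. None of the 4 replication genes had non-overlapping groups. Over the 26 genes Cre 5 was second highest for 11 and control 2 for 9, against 31.2% and 27.7% of the table.

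Kinetochore and chromosome genes followed control 1 closely. Mki67, whose protein coats mitotic chromosomes and marks proliferating cells, had 2.17 and 0.02 in the controls and -0.58, -0.34 and -0.56 in the Cre libraries. Top2a, the topoisomerase that untangles sister chromatids, had 2.17 and -0.66 in the controls and -0.29, -0.82 and -0.18 in the Cre libraries. Control 2 was second highest for Mki67 but next to lowest for Top2a, so these markers of dividing cells differed in where they placed it. The kinetochore genes Cenpe, Cenpf and Ndc80 were at 2.16 to 2.21 in control 1 and at -0.82 to 0.00 in the other 4 libraries.

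Among the spindle motors, Kif11, which pushes the spindle poles apart, had 2.04 and 0.28 in the controls and -0.86, -0.88 and -0.49 in the Cre libraries. Kif15, a motor that can take over part of that task, had 2.14 and -0.04 against -0.49, -0.69 and -0.84. These kinesins had the smallest p-values of the set in BAT, though neither passed the test. Kif22, a chromosome-arm kinesin, had 2.22 and -0.53 in the controls and -0.46, -0.28 and -0.61 in the Cre libraries. Kif23, of the centralspindlin complex of cytokinesis, had 1.91 and -0.41 in the controls and -0.08, 0.22 and -1.45 in the Cre libraries, where it spread more widely than the other kinesins.

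Of the spindle and division-site factors, Aurkb, the kinase of the chromosomal passenger complex, had 2.17 and -0.53 in the controls and -0.46, 0.01 and -0.81 in the Cre libraries. Tpx2, a spindle assembly factor that activates Aurora A, had 2.08 and -0.13 against -1.15, -0.06 and -0.21. Stmn1, which destabilises microtubules, had 2.20 and -0.69 against -0.20, -0.60 and -0.26, with control 2 lowest. In these 3 genes every library other than control 1 lay at or below 0.01. Prc1, which bundles the central spindle, Ect2, which directs the cleavage furrow, and the kinase gene Melk had 2.20 to 2.21 in control 1, and Ccnb1ip1 had 2.24 there with the other 4 libraries tied at -0.45.

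Bub1b, which encodes the spindle checkpoint protein BubR1, was the least distinct of the 25, with 1.48 in control 1, 1.17 in Cre 5, -0.26 in control 2, -0.52 in Cre 6 and -1.35 in Cre 4. Control 1 exceeded the next library by 0.31 for this gene. The median gap between control 1 and the highest other library was 1.35 over the whole table.

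For Cre against control in BAT, the mean was lower in Cre for 26 of 26 genes, beside 82.5% of the table, and the median Cre minus control difference was -1.35, beside -1.29 over all genes. Both controls lay above all Cre libraries for 8 genes (Ccna2, Ccnb2, Cdk1, Cenpe, Kif11, Kif15, Mki67 and Prc1), or 30.8%, close to the 28.7% of all genes, and no division gene had all Cre libraries above both controls, beside 4.36%. In either direction 33.0% of the table was non-overlapping. In limma's gene-wise linear model with Benjamini-Hochberg adjustment over 2500 genes, none of the 26 passed an adjusted p of 0.05, nor did any gene of the table (0.0%). At an unadjusted p under 0.05 the counts were 0 of 26, against 10.5% of the table called lower and 0.92% called higher in Cre. Kif11 came nearest, with a difference of -1.90 (SE 0.68, limma adjusted p = 0.471), followed by Kif15 at -1.72 (SE 0.82, limma adjusted p = 0.531). Cdk1 differed by -1.67 (SE 0.86) and Mki67 by -1.59 (SE 0.81), both with a limma adjusted p of 0.531.

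The size of the BAT difference rested on control 1. Without it, the median difference of the 26 genes was -0.08, beside 0.0 over all genes, and 15 had a lower Cre mean (57.7%, against 49.4% of the table). The lone remaining control lay above all Cre libraries for 8 of the 26 genes (30.8%, against 31.1% of the table) and below them for 2 (against 462 of 2500 genes), and it is assumed to vary like the Cre libraries. Without control 2 the median was -2.66, beside -2.27 over all genes, and 25 of the 26 genes were non-overlapping (96.2%, against 86.5% of the table). That fit has control 1 as the lone control and so no spread between controls. Control 1 was already highest for 25 of the 26 genes, so the fit does not test a group difference. Its differences were -2.67 for Mki67, -2.78 for Kif11, -2.76 for Cdk1 and -0.11 for Ccne1. Without Cre 5, non-overlapping groups were found for 15 of the 26 genes (57.7%) and for 47.0% of the table.

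In liver the division genes peaked in control 8. That library was highest for 15 of the 18 genes, at 1.32 to 2.23, beside 56.4% of the table, and lay above 2 for 3 of them, beside 28.2%. The other 2 controls did not share its position. Mean z-scores over the 18 genes were -0.73, 1.52 and -0.06 for controls 7, 8 and 9, against 0.08, -0.71 and -0.11 for Cre 10, 11 and 12. Control 7 and Cre 11 were each lowest for 7 of the 18 genes, beside 29.6% and 16.2% of the table. The low end of the range thus held 1 library of each group.

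**Figure D3:**
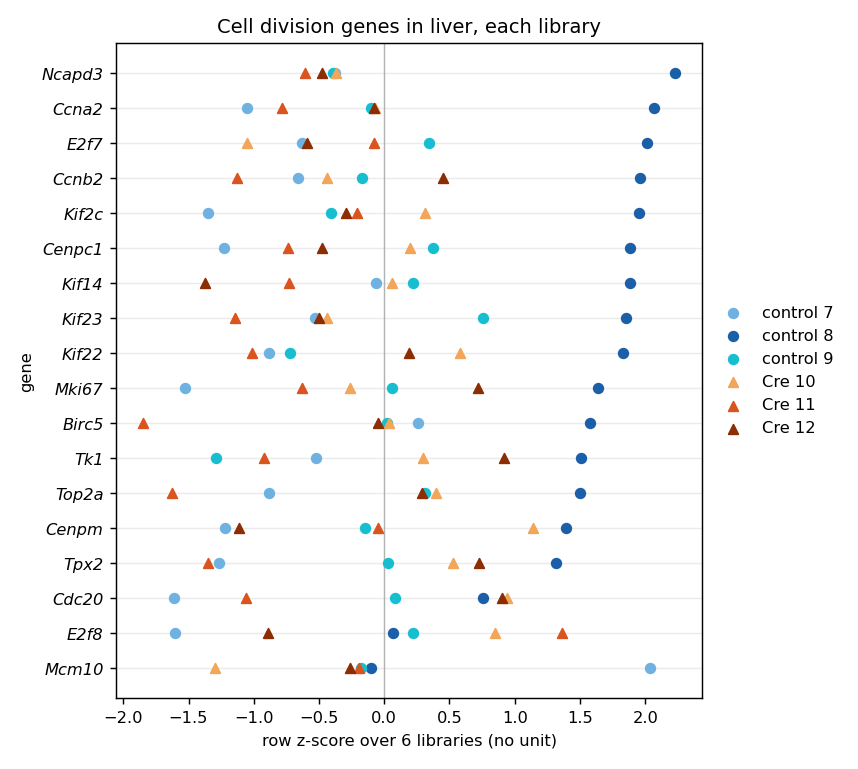
Row z-score (horizontal axis, in SD over 6 libraries) of each of the 18 cell division genes in the liver table (vertical axis), with a circle for each control and a triangle for each Cre library. Control 8 is highest for 15 genes, while control 7 and Cre 11 share the low end.

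Among the liver cyclins, Ccna2 had -1.05, 2.07 and -0.10 in control libraries 7, 8 and 9, against -0.07, -0.78 and -0.08 in Cre 10, 11 and 12. Ccnb2 had -0.66, 1.96 and -0.17 in the controls and -0.44, -1.13 and 0.45 in the Cre libraries. In both genes control 8 stood alone and the remaining controls lay among the Cre libraries.

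The marker Mki67 had -1.53, 1.64 and 0.06 in the liver controls and -0.26, -0.63 and 0.72 in the Cre libraries. Top2a had -0.88, 1.5 and 0.31 in the controls and 0.40, -1.63 and 0.29 in the Cre libraries. Controls spanned the full range of Mki67, holding both its highest and its lowest library, whereas Top2a was lowest in Cre 11. Birc5, the survivin subunit of the chromosomal passenger complex, had 0.26, 1.58 and 0.02 against 0.04, -1.85 and -0.05. Ncapd3, a condensin II subunit, was at 2.23 in control 8 and between -0.61 and -0.37 elsewhere, the narrowest of the 18.

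Kif23 had -0.53, 1.85 and 0.76 in the liver controls and -0.44, -1.14 and -0.50 in the Cre libraries. Kif14, a kinesin of cytokinesis, had -0.06, 1.88 and 0.22 against 0.06, -0.73 and -1.37. These kinesins had the smallest p-values in liver, at differences of -1.39 (SE 0.72) and -1.36 (SE 0.73), each with a limma adjusted p of 0.623. Kif22 had -0.88, 1.83 and -0.72 against 0.58, -1.01 and 0.19, and Tpx2 had -1.27, 1.32 and 0.03 against 0.53, -1.35 and 0.73. For these 2 genes the group means nearly coincided, with differences of -0.16 and -0.06. The microtubule depolymerase Kif2c and the centromere genes Cenpc1 and Cenpm were at 1.95, 1.88 and 1.39 in control 8 and lowest in control 7.

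In liver, 3 genes did not peak in control 8. Mcm10, which helps start replication forks, had 2.04, -0.10 and -0.18 in the controls and -1.30, -0.19 and -0.26 in the Cre libraries. It was the only 1 of the 18 with non-overlapping groups, lower in Cre, beside 12.3% of the table (10.3% were non-overlapping and higher, 22.6% either), but the lowest control (-0.18) and the highest Cre library (-0.19) nearly met, and the difference of -1.17 (SE 0.81) had a limma adjusted p of 0.625. E2f8, a repressor of the E2F family, had -1.60, 0.07 and 0.22 in the controls and 0.85, 1.36 and -0.89 in the Cre libraries. Cdc20, which activates the anaphase-promoting complex, had -1.61, 0.76 and 0.08 against 0.94, -1.06 and 0.90. Their differences were 0.88 (SE 0.90, limma adjusted p = 0.656) and 0.52 (SE 0.97, limma adjusted p = 0.768), and in both genes the groups overlapped.

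The thymidine kinase gene Tk1 also had a higher Cre mean, with a difference of 0.20, while peaking in control 8. E2f7, the other repressor of the E2F family in the table, had a lower Cre mean (-1.15, SE 0.82) and was at 2.01 in control 8. These related repressors thus ranked the libraries differently, but neither had separated groups.

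Over the 18 liver genes, 15 had a lower Cre mean (83.3%), beside 60.4% of the table, and 3 a higher one, beside 39.6%. The median difference was -0.62, beside -0.50 over all genes. By limma's gene-wise test none of the 18 passed an adjusted p of 0.05, nor did any of the 2500 genes (0.0%). None of the 18 had an unadjusted p under 0.05, against 2.52% of the table called lower and 3.24% called higher. Without control 8 the median difference was 0.18, beside 0.11 over all genes, and 7 of 18 had a lower Cre mean (38.9%, against 44.2% of the table). Without control 7 the median was -1.06, beside -0.93 over all genes, and 5 of 18 genes had non-overlapping groups (27.8%, against 47.0% of the table). Without Cre 10 there were 4 (22.2%, against 33.1%), and leaving out any 1 of the other 4 liver libraries gave 2 (11.1%, against 27.9% to 33.3%).

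The 7 genes in both tables, Ccna2, Ccnb2, Kif22, Kif23, Mki67, Top2a and Tpx2, had a lower Cre mean in both tissues. Mki67 differed by -1.59 in BAT and by -0.11 in liver, while Kif23 differed by -1.19 and -1.39. The difference between tissues was tested by a limma contrast over the 526 shared genes. None of them passed an adjusted p of 0.05 (0.0%) and 6.84% had an unadjusted p under 0.05. The 7 genes had adjusted p-values of 0.88 to 0.998 by that limma contrast, with Mki67 lowest (-1.48, SE 1.34). The tables were scaled apart, so this contrast compares positions within each tissue and not amounts.

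**Figure D4:**
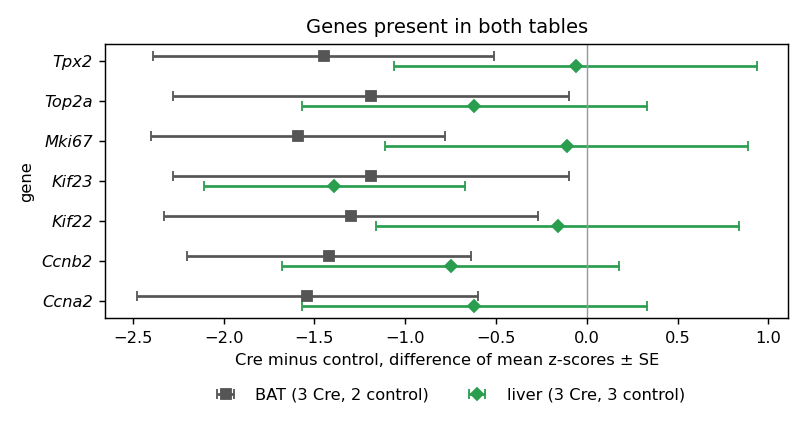
Cre minus control difference of mean z-scores (horizontal axis, in SD over 6 libraries, scaled per tissue) for the 7 cell division genes in both tables (vertical axis), in BAT (squares) and liver (diamonds), with bars of 1 SE from limma's gene-wise model. All 14 differences lie below 0, from -1.59 to -0.06, and the bars of BAT and liver overlap for each gene.

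Genes of the same processes that the name pattern did not take behaved alike in BAT, where 70.7% of all genes were highest in control 1. Of 59 further mitosis genes 14 were in the table, all 14 highest in control 1 at a mean of 2.01, with Espl1, the separase, at 1.76, Racgap1, of centralspindlin, at 2.11 and Smc2, of condensin, at 2.02. Of 38 S-phase genes 4 were in it, all 4 highest in control 1 at a mean of 1.80, and of 28 recombination and checkpoint genes 3, at 2.05. Of 38 cell cycle transcription factors and brakes 7 were in it and 5 were highest in control 1. Cdkn1a, which encodes the p21 inhibitor of cyclin-dependent kinases and was picked out after its values were seen, was at 0.17 in control 1 and 1.64 in control 2. No listed gene passed the limma test in either tissue.

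In liver, all 5 further mitosis genes, both S-phase genes and all 7 recombination genes were highest in control 8, beside 56.4% of the table. Their means there were 1.91, 1.98 and 1.78. Of the recombination genes, all 7 had a lower Cre mean, beside 60.4% of the table, with a median difference of -1.12 beside -0.50 over all genes. Non-overlapping groups, lower in Cre, were found for 3 (Blm, Fanca and Brip1), beside 12.3% of the table. Of 9 transcription factors and brakes, only 3 were highest in control 8 and 4 were highest in Cre 11. The Cre mean was lower for 4 of the 9 and higher for 5. Mybl1 and Mybl2, of the Myb family, were at 2.18 and 2.15 in control 8, whereas Myc was highest in Cre 11 at 1.76. Btg2, an antiproliferative gene, was picked out after its values were seen. It had -1.25, -0.41 and -1.04 in the controls and 0.24, 1.46 and 1.0 in the Cre libraries. Its groups were non-overlapping and higher in Cre, beside 10.3% of the table, without passing the test (limma adjusted p = 0.623). The cyclin gene Ccnd1, of the same list, also had a higher Cre mean, with overlapping groups (difference 1.39, limma adjusted p = 0.623).

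Markers of several immune cell types, though not all, were highest in the same libraries as the division genes. Over all genes, 70.7% were highest in control 1 in BAT and 56.4% in control 8 in liver. In BAT, 21 of 22 T and NK cell markers were in the table and all 21 were highest in control 1, with means of 2.14 there, -0.62 in control 2 and -0.52 to -0.21 in the Cre libraries. All 8 macrophage markers of 14 were highest in control 1 at a mean of 1.91, and Cre 5 was second at 0.38, as it was for the replication genes. All 4 B and plasma cell markers of 19 were highest there too, at 1.82. The 2 neutrophil markers in the table did not peak in control 1, where Ltf was lowest, at -1.5, and Prtn3 was in the middle of its range of libraries, at -0.49. The 4 Y-linked genes were also highest in control 1, at a mean of 2.21. Of 14 skeletal muscle markers 11 were highest in control 1, beside 70.7% of the table. All 14 had non-overlapping groups, lower in Cre, beside 28.7% of the table. Their means were 1.08 and 1.0 in the controls and -1.90, 0.13 and 0.09 in Cre 4, 5 and 6.

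In liver, all 14 B and plasma cell markers of 19 were highest in control 8 at a mean of 2.05, all 6 T and NK cell markers at 1.93 and all 3 macrophage markers at 1.77. The 2 germinal centre B cell markers differed there, with S1pr2 at its lowest, -1.92, and Bcl6 at 0.58. Hepatocyte markers, 5 of 13, had their lowest mean in control 8, at -1.49. The 4 Y-linked genes were highest in control 7 (mean 2.02), not in control 8 (mean 0.27, with Kdm5d at 1.16). All 4 had a lower Cre mean, beside 60.4% of the table. Kdm5d and Uty had non-overlapping groups, lower in Cre, beside 12.3% of the table. Of the muscle markers, 14 of 14 were highest in Cre 12, at 2.21. The part of cell composition, sex or dissection in the division gene values was not tested.

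**Figure D5:**
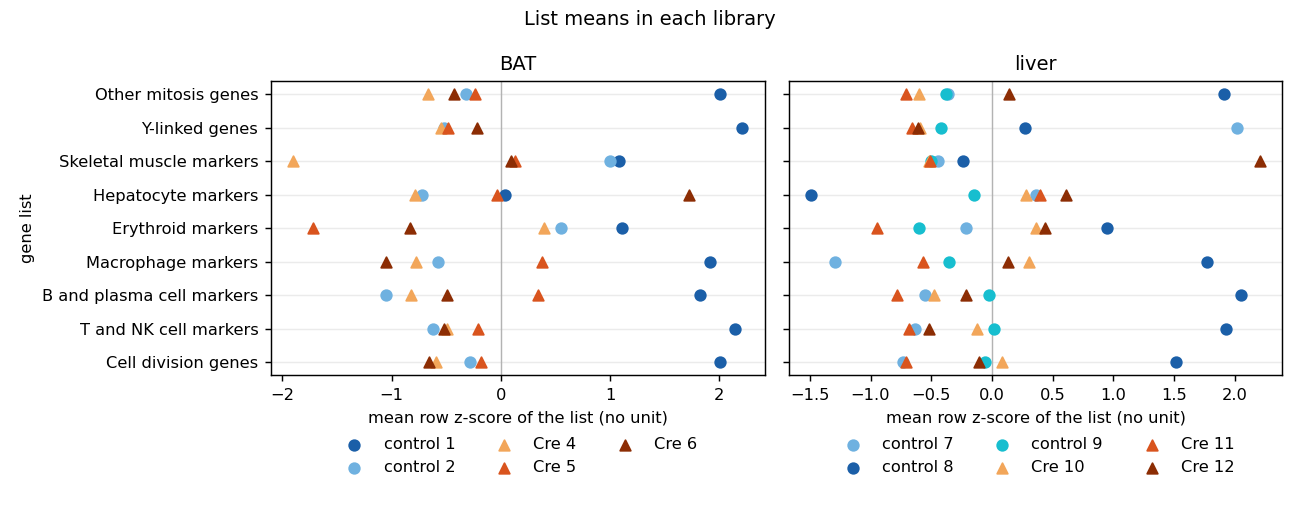
Mean row z-score (horizontal axis, in SD over 6 libraries) of the cell division genes and 8 further gene lists (vertical axis) in each library of BAT and liver, with circles for controls and triangles for Cre. In BAT, control 1 is highest for the division genes (2.01) and the T and NK cell markers (2.14), and in liver control 8 is highest for the division genes (1.52) and the B and plasma cell markers (2.05).

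On GRCm38 (GENCODE M21), 14 of the 37 genes overlap a gene on the opposite strand and 8 a gene on the same strand. The labels describe both directional and non-directional libraries without saying which was used. In non-directional libraries, reads from stretches shared by the opposite-strand pairs Ccna2 and Exosc9, Cdc20 and Elovl1, or Tk1 and Afmid could not be assigned. The extent of these overlaps was not measured. Ccnb2, Kif22 and Stmn1 each have a pseudogene or related sequence named after them that could share reads, and their values are uncertain to that extent.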

How the data were processed

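The authors deposited 1 table per tissue with a score per gene and library. From the values, the scores are row z-scores: in liver all 2500 rows sum to 0 within 1e-06 and their squares sum to 6. The submitters' processing notes name the genome builds GRCm38, mm10 and mm9 and the tools DESeq2 (1.20.0) and TopHat (1.3.3), with no role for any of them. No source says whether values were logged before they were scaled, and depth is unknown. Columns were assigned by the library titles, and no value column was left without a sample.

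Cre was compared with control in each tissue with a linear model per gene in limma 3.58.1 (R 4.3.3), without variance moderation. Tests were two-sided, p-values were adjusted over all 2500 genes of a table (Benjamini-Hochberg), and the threshold was 0.05. The script was tested on simulated data. The difference between tissues was a contrast over the 526 shared genes. Groups are called non-overlapping where every Cre library lies above, or every one below, the controls. Gene sets were described by counts and medians beside those of the whole table, with no set test.

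The genes, the comparison lists and the tests were chosen with earlier results of these data known. Values in every library are given for a fixed list of well-known division genes, for genes in both tables, for genes off the shared pattern or with non-overlapping liver groups, and for the 2 smallest p-values per direction and tissue. Other genes were added after their values were seen. Gene positions are from GENCODE M21, which gave 1 gene for each of the 37 symbols. Promoters are from RefSeq (GRCm38.p6), the first listed per gene. Alternatives were variance moderation, ranks within genes, means over genes, leaving out genes tied at their lowest value, a core set of division genes, BAT values rescaled over 5 libraries, and each library left out in turn.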

Additional observations from a re-analysis of the deposited data

How the results depend on the processing

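No paired analysis was possible, because no label says whether BAT and liver libraries came from the same mice. The contrast between tissues treated all libraries as independent, which would not hold if they did. Under the alternatives other than leaving out a library, every result kept its direction and its side of the threshold, or for counts stayed within 1.5 times. Leaving out each library in turn gave 0 to 433 BAT genes past the adjusted p and 122 to 918 past the unadjusted p, the highest counts without control 2. Over the BAT division genes the median difference ran from -2.66 to -0.08, the number with a lower Cre mean from 15 to 26 and with non-overlapping groups from 9 to 25. In liver, the genes past the unadjusted p ran from 69 to 222, the median difference of the division genes from -1.06 to 0.18, those with a lower Cre mean from 7 to 17 and those with non-overlapping groups from 2 to 5. The liver median turned positive without control 8 (0.18). The liver Mki67 difference ran from -0.90 to 0.68, turning positive without control 8 (0.68) and without Cre 11 (0.17). For the difference between tissues, 0 to 1 shared genes passed, the 1 without BAT control 1. The cause of these shifts was not tested. With 2 or 3 libraries per group the precision is limited, and z-scores give no depth.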

Other observations

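In BAT, the 3 thymocyte and the 2 germinal centre B cell markers in the table were highest in control 1, at means of 1.90 and 1.23, as were the 4 cholangiocyte markers (Krt7, Krt19, Sox9 and Epcam), at 1.91. The 4 erythroid markers had their highest mean in control 1, at 1.11, with 3 of them highest there, and their lowest in Cre 5, at -1.72, while the 3 adipocyte progenitor and fibroblast markers had their highest mean in Cre 5, at 1.58. The 9 hepatocyte markers in the BAT table were highest in mean in Cre 6, at 1.72. Dio2, the single brown adipocyte marker, was highest in control 2, at 1.39. Of the 2 neutrophil markers, Prtn3 was highest in Cre 5, at 1.62, and Ltf in control 2, at 0.97. The 2 adipocyte markers went opposite ways. Lep was at 1.01 and 0.90 in the controls and -0.73, -1.82 and 0.56 in the Cre libraries, and Cfd at -1.30 and -0.82 against 0.22, 1.61 and -0.54. No endothelial, megakaryocyte or platelet marker was in the BAT table.

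In liver, 6 adipocyte markers and 6 brown adipocyte markers had their highest mean in Cre 12, at 2.08 and 1.71, the same library that was highest for the muscle markers. Among the brown adipocyte markers, 5 were highest there, while Elovl3 was lowest there (-0.70) and highest in control 7 (2.21). The 7 erythroid markers had their highest mean in control 8, at 0.95, as did the 3 thymocyte markers, at 1.18. In that library 4 of the erythroid and 2 of the thymocyte markers were highest, while Tcf7 was at -0.58 there and 1.67 in control 9. Of the 2 germinal centre B cell markers, Bcl6 was highest in control 7, at 1.93, and S1pr2 in Cre 12, at 1.28. The single neutrophil and endothelial markers were highest in control 8, at 2.08 and 1.83. The 2 adipocyte progenitor and fibroblast markers had their highest mean in Cre 12, at 1.13. No cholangiocyte, megakaryocyte or platelet marker was in the liver table.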
